A study of Arabidopsis thaliana with 24 samples.

Results

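The TMO5-LHW module is a set of 7 Arabidopsis thaliana genes that act in xylem precursor cells of the root. It was followed here across the 8 groups of an experiment on the hormone abscisic acid (ABA). The members were taken by locus from the table of counts, which held 34218 features: TMO5 (AT3G25710), T5L1 (AT1G68810), LHW (AT2G27230), ACL5 (AT5G19530), LOG3 (AT2G37210), LOG4 (AT3G53450) and AHP6 (AT1G80100). All 7 had reads in every one of the 24 libraries, and all 7 passed the filter on low counts, which left 21315 genes for testing. The question put to the data was how the level of each member changed with ABA, and whether the change differed where ABA signalling was blocked by a driver line.

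Roots of 1 cm were cut from seedlings 5 days old after 8 h on plates with 1 µM ABA or on mock plates, and 50 to 100 seedlings were pooled for each library. All 8 groups carried UAS::abi1-1, a transgene for a dominant form of the phosphatase ABI1 that blocks ABA signalling in the cells that make it. The plants were F1 offspring of that line with the enhancer trap lines J0571, J1721 or Q0990, each of which supplies the activator of the transgene in its own cells, or with the accession C24, which supplies none. The groups were therefore J0571 with ABA and J0571 with mock, J1721 with ABA and with mock, Q0990 with ABA and with mock, and C24 with ABA and with mock, with 3 libraries in each. The sources used here name neither the cells of each driver nor separate sowings, and a p-value here reflects how much these pools of seedlings varied.

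The root xylem forms from a small set of precursor cells inside the vascular cylinder. TMO5 and its close relative T5L1 are basic helix-loop-helix (bHLH) transcription factors that pair with the bHLH factor LHW. The pair activates LOG3 and LOG4, enzymes of the last step of cytokinin synthesis, and cytokinin made in the xylem precursors drives divisions in neighbouring cells. AHP6, a phosphotransfer protein that blocks cytokinin signalling in the xylem cells themselves, and ACL5, which makes the polyamine thermospermine and so restrains the pair and xylem formation, are further outputs of the module.

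Library totals ran between 38542817 and 61555387 counts. Treatment was the main axis among the genes that varied most over the libraries (55.7% of their variance). On the next axis (5.16%) each line's mock library 1 lay away from mock libraries 2 and 3. It lay above them in C24 (34.4 beside 5.57 and 8.45) and Q0990 (23.2 beside 2.00 and 2.66). It lay below them in J0571 (-26.3 beside -13.3 and -15.2) and J1721 (-11.4 beside 6.50 and 0.58). Where leaving out mock library 1 of each line changed a count of genes called in a list, the count without them is given beside it. All 8 root markers had reads in every library. The shoot meristem marker STM had at most 0.133 CPM in ABA libraries and 0.0965 CPM in mock libraries. RAB18, LTI65 and ABI1, which are induced by ABA, were called higher with ABA in all 4 lines. Transcripts of the abi1-1 transgene can be counted as ABI1.

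The 7 members fell into 2 levels. Per length, as CPM (counts scaled to a common library size) for each kilobase of exon, LHW was highest with a median of 30.8 over 24 libraries, followed by ACL5 with 28.3, TMO5 with 21.4 and T5L1 with 13.1. The levels of AHP6 (3.11), LOG4 (2.92) and LOG3 (1.82) were far below these. In reads, LHW had 2871 to 5076 counts in a library and T5L1 700 to 1835, whereas LOG3 had 53 to 147, LOG4 91 to 172 and AHP6 87 to 183. The changes of these 3 cytokinin members therefore have wider intervals. The libraries come from whole root pieces, so fewer cells of a type and less RNA per cell cannot be told apart.

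TMO5 and T5L1 are the pair of relatives on which the results turn, and their coding sequences are alike in places, so the following stretches show how close they come. They are read from the RefSeq annotation of TAIR10.1, bases 379 to 438 of the coding sequence of TMO5 and 505 to 564 of T5L1, on chromosomes 3 and 1. Capitals mark the bases at which they differ, 3 of 60.
TMO5: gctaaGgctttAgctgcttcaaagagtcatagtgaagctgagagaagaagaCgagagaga
T5L1: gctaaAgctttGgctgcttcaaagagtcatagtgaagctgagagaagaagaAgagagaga
Over the whole alignment of 937 coding bases the identity was 66.5%, and the longest identical run was 39 bases, shorter than the reads of 150 bases.

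TMO5 rose with ABA in all 4 lines. In J0571 the ABA libraries had 39.0, 46.9 and 43.3 CPM, against 32.9, 27.7 and 31.2 CPM in the mock libraries. In J1721 they had 31.5, 34.9 and 36.3 CPM, against 27.5, 27.7 and 28.9 CPM with mock. Every ABA library of these lines lay above every mock library of the same line.

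In Q0990 TMO5 had 39.4, 43.3 and 36.4 CPM with ABA, against 30.6, 30.7 and 32.5 CPM with mock. In C24 it had 41.1, 46.5 and 41.0 CPM with ABA, against 32.0, 31.7 and 31.2 CPM with mock. Here too the ABA and mock libraries did not overlap. The log2 change was 0.49 ± 0.08 (SE) in J0571 (adjusted p = 4.75e-05, from the edgeR quasi-likelihood fit with p-values adjusted by Benjamini and Hochberg's method, as everywhere here), 0.29 ± 0.08 in J1721 (0.00911), 0.34 ± 0.08 in Q0990 (0.00198) and 0.44 ± 0.08 in C24 (0.000148). As folds these were 1.41, 1.22, 1.27 and 1.35. Being called higher in all 4 lines was shared with 10.1% of the genes tested. The call in J1721 was lost without ABA library 3 (adjusted p = 0.0644) and with upper-quartile scaling (0.0543).

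Ranked by group mean, the 4 ABA groups came before the 4 mock groups for TMO5: J0571, C24, Q0990 and J1721 with ABA, then C24, Q0990, J0571 and J1721 with mock. Neighbours in that order overlapped in their libraries except Q0990 and J1721 with ABA, whose nearest libraries had 36.4 and 36.3 CPM.

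T5L1 was lower with ABA, past the test in 3 of 4 lines. In J0571 it had 18.6, 21.4 and 16.1 CPM with ABA, against 26.0, 25.1 and 24.6 CPM with mock. In J1721 it had 27.9, 29.6 and 27.9 CPM with ABA, against 29.7, 34.9 and 33.9 CPM with mock. All ABA libraries of these lines lay below their mock libraries, in J1721 by a margin of less than 0.1 CPM.

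In Q0990 T5L1 had 24.1, 17.9 and 20.8 CPM with ABA, against 29.1, 30.2 and 23.8 CPM with mock. In C24 it had 21.6, 22.2 and 24.3 CPM with ABA, against 38.1, 27.7 and 29.3 CPM with mock. The groups overlapped in Q0990 and did not in C24, whose mock library 1 was the highest of all 24. T5L1 fell by 0.44 ± 0.12 (SE) on the log2 scale in J0571 (adjusted p = 0.00957), by 0.40 ± 0.12 in Q0990 (0.0132) and by 0.48 ± 0.12 in C24 (0.00326). In J1721 the log2 change of -0.21 ± 0.12 did not pass the test (0.221). Being called lower in 3 or more of the 4 lines was shared with 9.79% of the genes tested. The call in J0571 was lost without ABA library 3 (0.0796), and the call in Q0990 was lost without ABA library 2, mock library 1 or mock library 2 (0.0515 to 0.0898).

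Shoot markers differed among libraries in some lines. Their summed level (4 genes) in J0571 was 20.6 to 26.3 CPM with ABA, against 19.6, 26.7 and 25.1 CPM in mock libraries 1, 2 and 3, and in J1721 it was 12.5 to 19.1 CPM with ABA, against 15.4, 22.4 and 24.3 CPM with mock. Mock library 1 was the lowest mock library in these 2 lines. In Q0990 the sum was 15.0 to 25.2 CPM with ABA, against 41.4, 26.2 and 36.3 CPM with mock. In C24 it was 18.8 to 25.8 CPM with ABA, against 50.4, 23.4 and 26.8 CPM with mock, and mock library 1 was the highest in both of these. Shoot sums of ABA and mock libraries overlapped in J0571, J1721 and C24 and did not in Q0990. The log2 change of T5L1 was -0.44 in J0571, -0.21 in J1721, -0.48 in C24 and -0.40 in Q0990. Without C24 mock library 1, T5L1 in C24 fell by 0.33 on the log2 scale (adjusted p = 0.0384), and the part of shoot tissue in the T5L1 and ACL5 values was not tested. By group mean T5L1 ran J1721 mock, C24 mock, J1721 ABA, Q0990 mock, J0571 mock, C24 ABA, Q0990 ABA and J0571 ABA. Neighbours in that order overlapped in their libraries except J0571 mock and C24 ABA, whose nearest libraries had 24.6 and 24.3 CPM.

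LHW, the shared partner of TMO5 and T5L1, was lower with ABA by a smaller margin. In J0571 it had 84.1, 70.8 and 82.8 CPM with ABA, against 87.9, 87.6 and 90.4 CPM with mock. In J1721 it had 72.7, 82.9 and 74.9 CPM with ABA, against 80.0, 85.1 and 90.8 CPM with mock. The libraries did not overlap in J0571 and did in J1721.

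In Q0990 LHW had 77.8, 81.8 and 76.9 CPM with ABA, against 88.2, 85.2 and 84.8 CPM with mock. In C24 it had 72.0, 77.5 and 74.6 CPM with ABA, against 85.1, 87.0 and 93.5 CPM with mock. Neither line showed overlap. LHW fell by 0.25 ± 0.07 (SE) on the log2 scale in C24 (adjusted p = 0.00643). The log2 changes of -0.16 ± 0.07 in J0571 (0.0877), -0.15 ± 0.07 in J1721 (0.0996) and -0.13 ± 0.07 in Q0990 (0.164) did not pass. With upper-quartile scaling these 3 did pass (0.018, 0.0108 and 0.0158). The J0571 change also passed with DESeq2 (0.0449) or without ABA library 1 (0.0466), and the J1721 change without ABA library 2 (0.0392). By group mean LHW ran J0571, C24, Q0990 and J1721 with mock, then J0571, Q0990, J1721 and C24 with ABA, and all neighbours overlapped.

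ACL5, the thermospermine synthase gene, was also lower with ABA. In J0571 it had 46.2, 50.6 and 45.4 CPM with ABA, against 53.9, 54.3 and 53.4 CPM with mock. In J1721 it had 46.4, 45.6 and 44.7 CPM with ABA, against 45.8, 53.8 and 50.2 CPM with mock. The libraries did not overlap in J0571 and did in J1721.

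In Q0990 ACL5 had 42.2, 47.7 and 35.4 CPM with ABA, against 52.1, 51.7 and 49.6 CPM with mock. In C24 it had 46.4, 47.3 and 42.9 CPM with ABA, against 59.6, 53.7 and 48.3 CPM with mock. Neither line showed overlap, and C24 mock library 1 was again the highest of all. ACL5 fell by 0.29 ± 0.09 (SE) on the log2 scale in Q0990 (adjusted p = 0.0119) and by 0.24 ± 0.09 in C24 (0.0337). The log2 changes of -0.18 ± 0.09 in J0571 (0.133) and -0.13 ± 0.09 in J1721 (0.295) did not pass. The call in C24 was lost in 6 settings, without ABA library 1 or 3, without mock library 1 or 2, without mock library 1 of all lines, or with the C24 libraries fitted alone (0.0557 to 0.191). The call in Q0990 was lost without ABA library 3 (0.114), and the J0571 change passed with upper-quartile scaling (0.0481).

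By group mean ACL5 ran C24, J0571, Q0990 and J1721 with mock, then J0571, J1721, C24 and Q0990 with ABA. Neighbours overlapped except J0571 mock and Q0990 mock, whose nearest libraries had 53.4 and 52.1 CPM. In RefSeq the ACL5 locus overlaps AT5G19520 on the opposite strand by 196 bases, and reads from that stretch cannot be assigned where counting ignores strand.

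**Figure D1:**
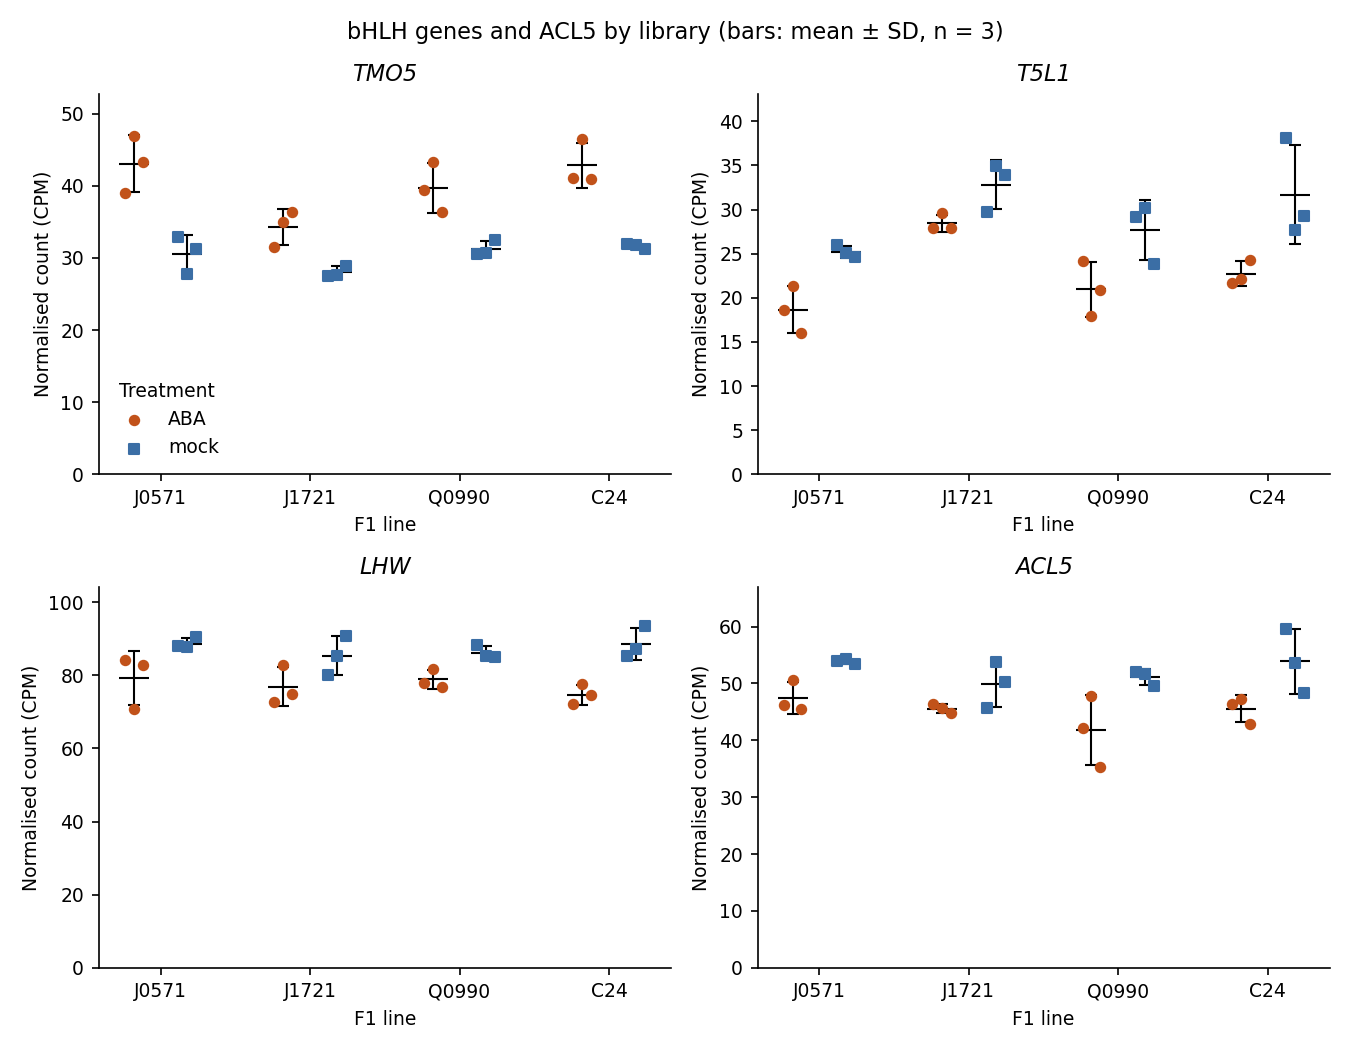
Normalised counts (CPM, linear axis starting at 0) of TMO5, T5L1, LHW and ACL5 in each library, by F1 line, with ABA libraries as circles to the left of mock libraries as squares. Horizontal bars are means and vertical bars are SD (n = 3). TMO5 lay at 31.5 to 46.9 CPM with ABA and 27.5 to 32.9 CPM with mock, and T5L1 at 16.1 to 29.6 CPM with ABA and 23.8 to 38.1 CPM with mock.

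LOG3 and LOG4, the cytokinin-activating enzymes of the module, are more alike than TMO5 and T5L1, so the closest stretch is shown to say how their reads could be split. Both lines are bases 238 to 297 of the coding sequence (RefSeq, TAIR10.1, chromosomes 2 and 3), and capitals mark the single base that differs.
LOG3: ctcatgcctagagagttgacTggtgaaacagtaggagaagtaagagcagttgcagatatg
LOG4: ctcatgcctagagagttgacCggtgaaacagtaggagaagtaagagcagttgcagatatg
The coding identity was 87.7% over 648 aligned bases. The longest identical run was 41 bases, here too shorter than the reads of 150 bases. The treatment of reads that match both genes is not given in the sources used here, and the split of any such reads between LOG3 and LOG4 is therefore uncertain.

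No change of LOG3 with ABA passed the test in any line. Its mean level was 2.25 ± 0.26 CPM with ABA and 2.25 ± 0.26 CPM with mock in J0571 (SD, n = 3, as for all means here), and 1.97 ± 0.54 CPM with ABA and 2.58 ± 0.42 CPM with mock in J1721. In Q0990 it was 2.36 ± 0.32 CPM with ABA and 2.66 ± 0.40 CPM with mock, and in C24 2.25 ± 0.51 CPM with ABA and 1.97 ± 0.14 CPM with mock. The groups overlapped in all 4 lines. The log2 change ran between -0.38 in J1721 (95% interval -0.82 to 0.06) and 0.19 in C24 (-0.25 to 0.63), with adjusted p values of 0.197 to 0.991.

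LOG4 likewise passed in no line. Its mean was 2.72 ± 0.24 CPM with ABA and 2.71 ± 0.14 CPM with mock in J0571, and 2.95 ± 0.73 CPM with ABA and 2.60 ± 0.11 CPM with mock in J1721. In Q0990 it was 2.52 ± 0.64 CPM with ABA and 2.60 ± 0.38 CPM with mock, and in C24 2.99 ± 0.56 CPM with ABA and 2.27 ± 0.14 CPM with mock. The C24 groups did not overlap, and those of the other 3 lines did. The log2 change lay between -0.05 and 0.17 in the driver lines and was 0.39 in C24 (95% interval -0.02 to 0.80, adjusted p = 0.134). In RefSeq LOG4 shares 1 base with the long non-coding locus AT3G08340 on the opposite strand.

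AHP6 is a member of the histidine phosphotransfer family that lacks the histidine which takes up the phosphoryl group, and this feature makes it an inhibitor. The aligned stretch of 45 coding bases is printed for AHP6 and for AHP1 to AHP5, from RefSeq (TAIR10.1), with capitals on the codon at the histidine position. The codon reads for histidine in the 5 relatives and does not in AHP6.
AHP6: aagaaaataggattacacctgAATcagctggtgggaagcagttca
AHP1: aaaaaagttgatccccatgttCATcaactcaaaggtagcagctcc
AHP2: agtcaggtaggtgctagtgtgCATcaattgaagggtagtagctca
AHP3: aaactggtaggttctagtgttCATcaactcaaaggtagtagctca
AHP4: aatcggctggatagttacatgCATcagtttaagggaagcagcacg
AHP5: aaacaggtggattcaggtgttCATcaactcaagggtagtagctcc
AHP6 lay at 3.21 ± 0.63 CPM with ABA and 3.22 ± 0.48 CPM with mock in J0571, and at 3.40 ± 0.51 CPM with ABA and 3.08 ± 0.28 CPM with mock in J1721. In Q0990 it lay at 3.20 ± 0.42 CPM with ABA and 3.19 ± 0.12 CPM with mock, and in C24 at 2.85 ± 0.62 CPM with ABA and 2.60 ± 0.39 CPM with mock. The groups overlapped in every line. The log2 change was -0.01 in J0571 (95% interval -0.38 to 0.37), 0.14 in J1721 (-0.24 to 0.52), 0.00 in Q0990 (-0.38 to 0.38) and 0.13 in C24 (-0.26 to 0.52), and none passed (adjusted p = 0.638 to 0.996). In J1721, Q0990 and C24 the intervals include the log2 change of TMO5 in the same line, and in J0571 the interval ends below it.

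**Figure D2:**
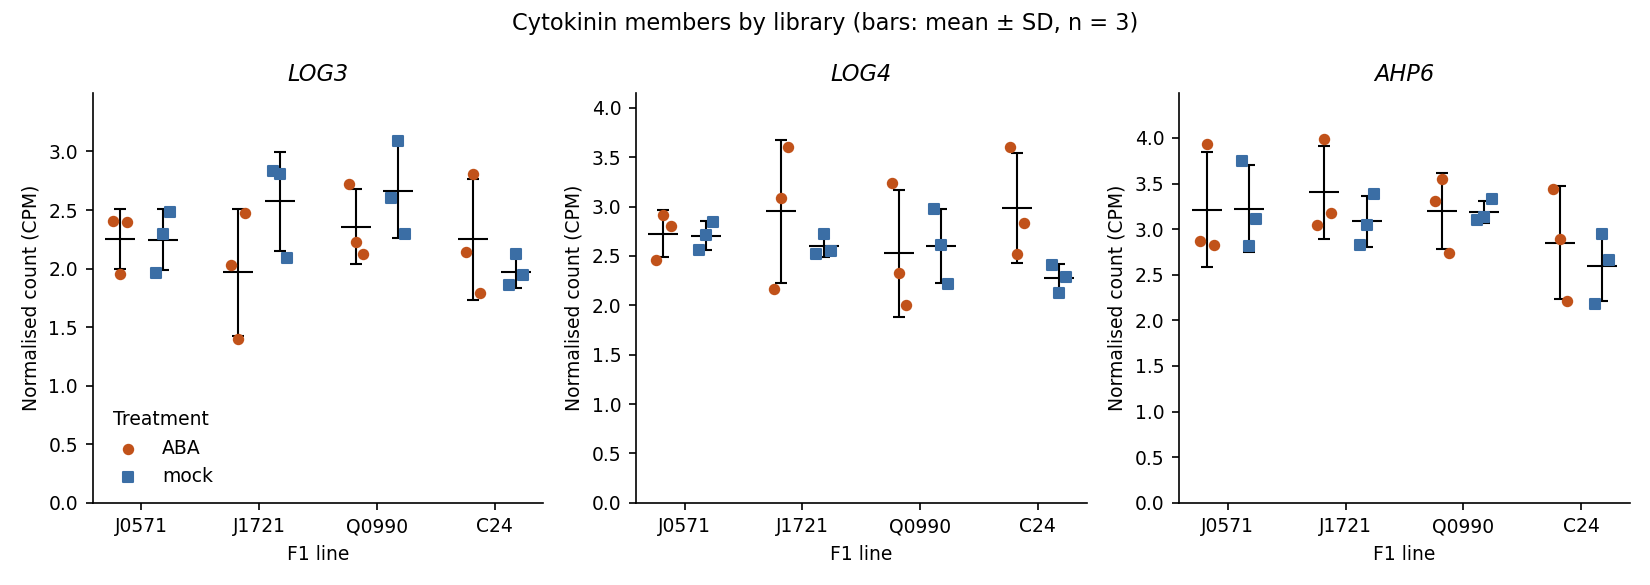
Normalised counts (CPM, linear axis starting at 0) of LOG3, LOG4 and AHP6 in each library, by F1 line, with ABA libraries as circles to the left of mock libraries as squares. Horizontal bars are means and vertical bars are SD (n = 3). ABA and mock libraries overlapped in every line for LOG3 and AHP6, and for LOG4 in J0571, J1721 and Q0990.

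Over the 4 lines, 1 member rose and 3 fell in the average response. TMO5 rose by 0.39 ± 0.04 on the log2 scale (SE, edgeR adjusted p = 1.25e-08). T5L1 fell by 0.38 ± 0.06 (9.06e-06), ACL5 by 0.21 ± 0.04 (0.000203) and LHW by 0.17 ± 0.03 (0.000133). These calls held in all 32 alternative settings tried for the average. The averages of LOG3 (-0.09), LOG4 (0.13) and AHP6 (0.07) were not called, with 95% intervals of -0.31 to 0.13, -0.07 to 0.34 and -0.13 to 0.26.

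Counts of members called are read against the whole table, since ABA moved many genes. In the average response 27.6% of genes tested were called higher and 27.6% lower (55.2% in all), against 1 and 3 of 7 members. In J0571 1 member rose and 1 fell, against 24.3% of genes called (14.4% higher, 9.87% lower). In J1721 1 rose and none fell, against 28.6% (15.8% higher, 12.7% lower).

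In Q0990 1 rose and 2 fell, against 31.2% (17% higher, 14.2% lower), and in C24 1 rose and 3 fell, against 34% (18.6% higher, 15.4% lower). Without mock library 1 of each line, 2 fell in C24. In J1721, where no member was called lower, LHW had an unadjusted p of 0.0343, and DESeq2 called 1 member in all. The share of members called was above that of all genes in Q0990 and C24, near it in J0571 and the average, and below it in J1721. The median log2 change of the 7 members was -0.01 in J0571, -0.13 in J1721, -0.13 in Q0990 and 0.13 in C24, set against medians over all genes tested of 0.01, -0.01, -0.01 and -0.02.

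The ABA and mock libraries of J0571 did not overlap for 4 of 7 members (1 higher and 3 lower with ABA), against 37.4% of all genes (21.2% higher, 16.2% lower). In J1721 this held for 2 members (1 higher, 1 lower), against 41.7% of genes (21.5% higher, 20.3% lower). In Q0990 it held for 3 members (1 higher, 2 lower), against 44.3% of genes (23.2% higher, 21.1% lower). In C24 it held for 5 members (2 higher, 3 lower), against 43.1% of genes (22.6% higher, 20.5% lower). The member counts thus lie on both sides of the shares of all genes.

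**Figure D3:**
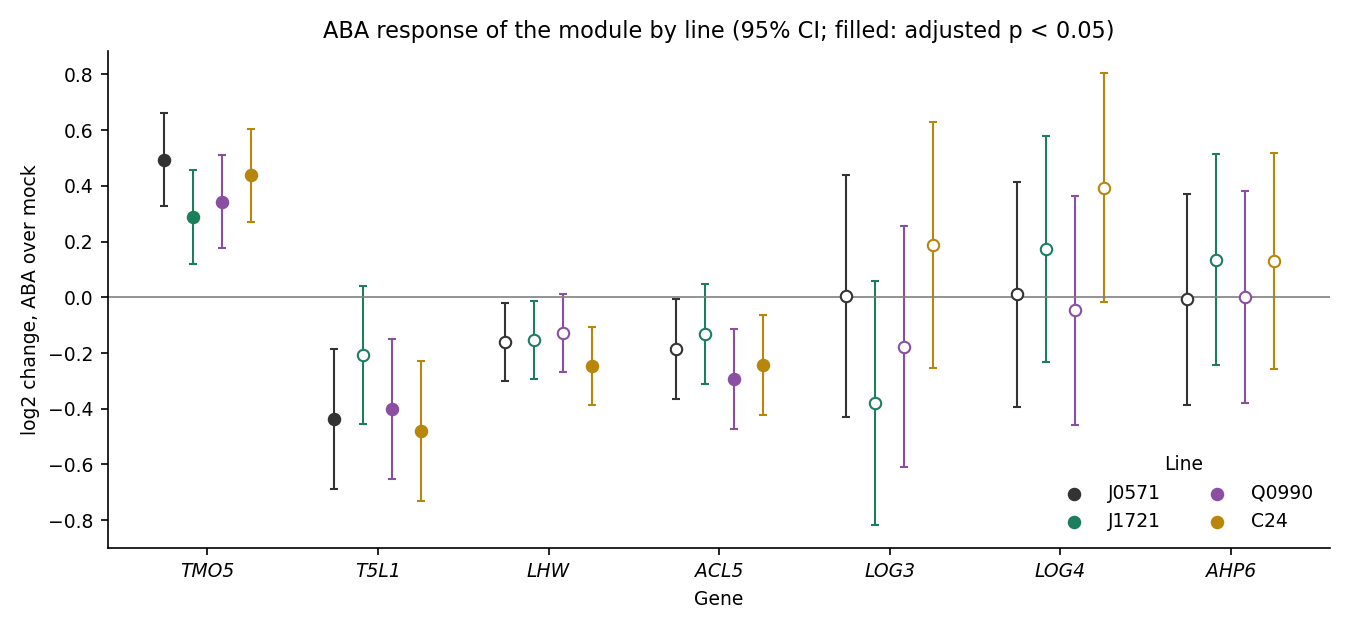
Log2 change with ABA over mock for the 7 members (x axis) in each line, with 95% confidence intervals from the edgeR fit. Filled points have an adjusted p under 0.05 and white points do not. TMO5 lies between 0.29 and 0.49 in all 4 lines and T5L1 between -0.48 and -0.21, and the intervals of LOG3, LOG4 and AHP6 include 0 in every line.

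A ratio of TMO5 to T5L1 within a library does not depend on depth or scaling. It was formed after the values had been seen, is a description, and would also be higher if only one of the genes differed. In CPM, log2 of TMO5 over T5L1 was 1.07, 1.13 and 1.43 in the J0571 ABA libraries, against 0.34, 0.14 and 0.34 in the J0571 mock libraries. It was 0.17, 0.24 and 0.38 with ABA in J1721, against -0.11, -0.33 and -0.23 with mock.

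In Q0990 the log2 ratio was 0.71, 1.28 and 0.80 with ABA, against 0.07, 0.03 and 0.45 with mock. In C24 it was 0.92, 1.07 and 0.75 with ABA, against -0.25, 0.20 and 0.09 with mock. The ABA libraries lay above the mock libraries of their line in all 4 lines. Without a test, the group means of the log2 ratio were 1.21 with ABA and 0.28 with mock in J0571, 0.27 with ABA and -0.22 with mock in J1721, 0.93 with ABA and 0.18 with mock in Q0990, and 0.91 with ABA and 0.01 with mock in C24. With exon length taken into account and both genes summed, the ratio of TMO5 plus T5L1 to LHW (geometric mean) was 1.29 with ABA and 1.01 with mock in J0571, 1.31 with ABA and 1.12 with mock in J1721, 1.26 with ABA and 1.09 with mock in Q0990, and 1.44 with ABA and 1.13 with mock in C24.

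Genes of differentiating xylem moved with the treatment in the same libraries. The summed level of 7 markers (VND6, VND7, CESA4, CESA7, CESA8, XCP1 and XCP2) was 536 to 597 CPM with ABA and 372 to 377 CPM with mock in J0571, and 342 to 381 CPM with ABA and 283 to 327 CPM with mock in J1721. In Q0990 it was 528 to 653 CPM with ABA and 344 to 412 CPM with mock, and in C24 583 to 673 CPM with ABA and 343 to 369 CPM with mock. In the average response 6 of the 7 rose and VND6 fell. By line 6 rose in J0571, 5 in Q0990 and 6 in C24. In J1721, 2 rose and 1 fell, and none rose there without mock library 1 of each line. The gene that fell in J1721 was VND6 (log2 change -1.33), which was not called in J0571 (-0.15), Q0990 (-0.03) or C24 (-0.22). VND6 was low, with 0.264 to 3.75 CPM in ABA libraries and 0.975 to 3.93 CPM in mock libraries. Of other cell types, 3 of 6 markers of dividing cells and 2 of 4 of phloem rose in the average response. In the same response 1 phloem marker and 2 of 4 shoot markers fell. Beside these, 27.6% of all genes tested rose and 27.6% fell. By line 14.4% to 18.6% of all genes rose and 9.87% to 15.4% fell. Among 8 root markers COBL9 of root hairs (0.20) and CASP1 of the endodermis (0.18) rose, while SCR (-0.10) and SHR (-0.12), regulators of the ground tissue, fell. Without mock library 1 of each line, 4 dividing-cell markers rose in the average. Under the same setting 2 of them rose in J0571, against 1, 1 rose in Q0990, against 2, and 1 rose in C24, against 3. Shoot markers called lower were then 1 in J1721, against 0, and 0 in C24, against 2. The part of these cell types in the change of TMO5 was not tested.

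**Figure D4:**
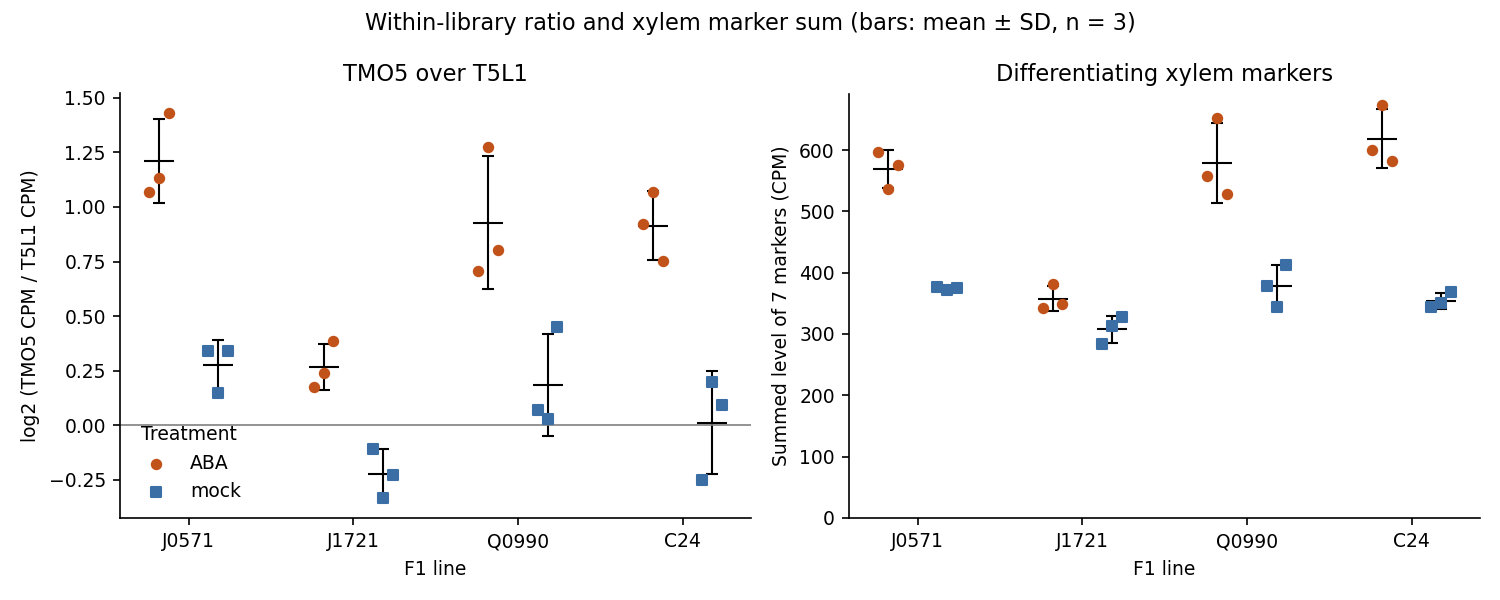
Left, log2 ratio of TMO5 to T5L1 in CPM in each library. Right, summed level of the 7 differentiating xylem markers (CPM, axis from 0). Both are shown by F1 line with ABA libraries as circles to the left of mock libraries as squares, and bars are mean and SD (n = 3). The ABA libraries lay above the mock libraries of their line in both panels, with the smallest marker gap in J1721 (342 to 381 against 283 to 327 CPM).

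The comparison of lines asked whether the response of a member differed with the driver. No member was called in the test of any difference among the 4 lines (edgeR, adjusted p = 0.905 to 0.989, unadjusted p under 0.05 in 0 of 7), in which 0.549% of genes were called. Nor was any called in the differences from C24, where 0.403% of genes were called for J0571 (0.277% higher, 0.127% lower), 0.169% for J1721 (0.0751% higher, 0.0938% lower) and 0% for Q0990. None of the 7 had an unadjusted p under 0.05 there, and DESeq2 called 0 of 7 in all of these tests. These 3 differences share the C24 libraries. For TMO5 the difference in log2 response was 0.06 for J0571 against C24 (95% interval -0.18 to 0.29), -0.15 for J1721 (-0.39 to 0.09) and -0.09 for Q0990 (-0.33 to 0.14). For T5L1 it was 0.04 for J0571 (-0.31 to 0.40), 0.27 for J1721 (-0.08 to 0.63) and 0.08 for Q0990 (-0.28 to 0.43).

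The intervals for LHW and ACL5 lay within -0.31 and 0.37 in all 3 lines. Those of LOG3, LOG4 and AHP6 were wider, with the lowest bound at -1.19 for LOG3 in J1721. Differences in response of any size inside these intervals remain compatible with these libraries. In the same difference of J1721 from C24, 3 of the 7 xylem markers were called lower: CESA4 at -0.69, CESA7 at -0.90 and CESA8 at -0.83, with adjusted p values of 0.0283, 0.0227 and 0.0283. In the test of any difference among the 4 lines CESA4 and CESA7 were called (edgeR adjusted p = 0.0423 and 0.0454) and CESA8 was not (0.0697). No alternative fit is given for these marker calls.

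Levels within a treatment gave a single call. In mock libraries no member differed from C24, where 0.474% of genes were called for J0571 (0.324% higher, 0.15% lower), 0.0422% for J1721 (0.0281% higher, 0.0141% lower) and 0.0469% for Q0990 (0.0469% higher, 0% lower) by edgeR, and DESeq2 also called 0 of 7. Unadjusted p values under 0.05 were found for T5L1 in J0571 (0.012) and for TMO5 in J1721 (0.0435). In ABA libraries TMO5 was lower in J1721 than in C24 by a log2 difference of -0.32 ± 0.08 (SE, adjusted p = 0.0434), where 1.29% of genes were called (0.657% higher, 0.638% lower). Its libraries, 31.5 to 36.3 CPM in J1721 and 41.0 to 46.5 CPM in C24, did not overlap. This call was lost in 12 of 14 alternative settings (adjusted p = 0.016 to 0.288 over the 14), among them each of the 6 that leave out a library of these groups. In the same comparison CESA4, CESA7 and CESA8 were lower in J1721 by log2 differences of -0.97, -1.25 and -1.19, and their part in the TMO5 difference was not tested.

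T5L1 stood higher in J1721 than in C24 with ABA by 0.32 on the log2 scale, which did not pass (adjusted p = 0.32). No member was called with ABA in J0571, where 3.94% of genes were called (2.05% higher, 1.89% lower), or in Q0990, where 0.0751% were (0.0704% higher, 0.00469% lower), and DESeq2 also called 0 of 7. Unadjusted p values under 0.05 were found there for T5L1 in J0571 (0.0288) and for none in Q0990.

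MP, the auxin response factor that activates TMO5, rose with ABA in all 4 lines, a call shared with 10.1% of the genes tested. In J1721 it was at 31.5 ± 4.40 CPM with ABA and 20.7 ± 1.18 CPM with mock, and in C24 at 45.6 ± 3.93 CPM with ABA and 28.7 ± 2.44 CPM with mock (SD, n = 3). Its average log2 change was 0.69 ± 0.06 (SE). By line the change was 0.68 in J0571, 0.61 in J1721, 0.80 in Q0990 and 0.67 in C24. It was not called in the test of any difference among the 4 lines (edgeR adjusted p = 0.973). With ABA the level of MP in J1721 was below that in C24 by a log2 difference of -0.53 (adjusted p = 0.0264). The mean of MP in J1721 was also the lower of these lines with mock, 20.7 CPM against 28.7 CPM in C24. The part of MP in the TMO5 values was not tested. Among the 5 HD-ZIP III factors, which pattern the xylem, ATHB8 fell by 0.18 and REV by 0.14 in the average response, and the other 3 were not called. By line, 1 of the 6 genes of this list was called higher in each line and 1 lower in J0571. Leaving out mock library 1 of each line, 2 were called lower in C24. Counts of genes called in this and the following lists stand beside these shares of all genes tested. Higher and lower, they were 27.6% and 27.6% in the average, 14.4% and 9.87% in J0571 and 15.8% and 12.7% in J1721. They were 17% and 14.2% in Q0990 and 18.6% and 15.4% in C24.

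Of 5 relatives of TMO5 and LHW, 2 fell and none rose in the average response, beside 27.6% of all genes each way. LHL1 and LHL2, bHLH relatives of LHW, fell by 0.28 and 0.24 on the log2 scale. By line 2 were called lower in J0571, 2 in J1721, none in Q0990 and 1 in C24. In J1721, 3 were called lower once mock library 1 of each line was left out. The median average change was -0.24.

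Of 4 bHLH genes of the SAC51 family, which counters the TMO5-LHW pair and is linked to thermospermine, 1 rose and 1 fell in each line. They were AT5G50010, annotated as bHLH145, with an average log2 change of 0.54, and AT1G29950, with -0.26. By line 14.4% to 18.6% of all genes rose and 9.87% to 15.4% fell. SAC51 itself was not called (-0.09, adjusted p = 0.143). In J0571 no member was called lower once those mock libraries were left out.

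In polyamine synthesis, the pathway of ACL5, 3 of 8 genes rose and 1 fell in each line. Among all genes, 14.4% to 18.6% rose and 9.87% to 15.4% fell by line. ADC2, an arginine decarboxylase at the start of the pathway, had 1008 ± 97.4 CPM with ABA and 284.9 ± 69.0 CPM with mock in C24, and rose by 1.69 ± 0.08 (SE) on the log2 scale in the average. AT5G15950, annotated as an adenosylmethionine decarboxylase, rose by 0.83 and SPMS, the spermine synthase gene, by 0.41. The gene that fell was SPDS2, a spermidine synthase gene, by 0.33. Without mock library 1 of each line, 2 genes of this list were called lower in the average response.

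Among DOF factors and other downstream targets, 2 of 7 genes fell and none rose in the average response, beside 27.6% of all genes each way. CKX3, a cytokinin oxidase gene, fell by 0.57, and AT2G28510, annotated as a DOF factor, by 0.25. By line 1 was called lower in J0571, 1 in J1721, 2 in Q0990 and 1 in C24. TMO6 and BGLU44, further targets, had average log2 changes of 0.03 and -0.05 and were not called.

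Of the 6 other LOG genes, 4 rose in the average response, beside 27.6% of all genes, and LOG3 and LOG4 were not called. By line 3 were called higher in J0571, 3 in J1721, 4 in Q0990 and 4 in C24, and none lower. With mock library 1 of each line left out, 3 were called higher in Q0990 and 5 in C24. LOG5 had 5.87 ± 1.85 CPM with ABA and 0.633 ± 0.0954 CPM with mock in C24, an average log2 change of 3.12 ± 0.17 (SE). LOG2 rose by 1.07 and LOG1 by 0.93 in the average. LOG2 was called in Q0990 (1.37) and C24 (1.91) and not in J0571 (0.70) or J1721 (0.29). It was not called in the test of any difference among the 4 lines (edgeR adjusted p = 0.179). The median average change of the 6 was 0.64, beside -0.01 for all genes.

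Of 7 genes for cytokinin synthesis and perception, 1 rose and 5 fell in the average response, beside 27.6% of all genes each way. By line, none rose and 5 fell in J0571, and 1 rose and 4 fell in each of J1721, Q0990 and C24. IPT3, which encodes an enzyme of the first step of cytokinin synthesis, had 2.00, 1.98 and 3.61 CPM with ABA and 7.35, 9.49 and 8.09 CPM with mock in C24. Its average log2 change was -2.07 ± 0.17 (SE). IPT7 (-1.70) and IPT5 (-0.49) fell too, and IPT1 was not called. Without mock library 1 of each line, 4 were called lower in J0571. The receptor gene AHK3 rose in J1721, Q0990 and C24, a call lost in J1721 and C24 without mock library 1 of each line.

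Of the 5 phosphotransfer relatives of AHP6, 2 rose and 2 fell in the average response, beside 27.6% of all genes each way. In each line 1 rose and 1 fell. AHP1 fell by 0.49 and AHP3 rose by 0.17 in the average. The gene called higher was AHP4 in the 3 driver lines and AHP3 in C24, where AHP4 did not pass (edgeR adjusted p = 0.0768). Neither gene was called in the test of any difference among the 4 lines (edgeR adjusted p = 0.704 for AHP4 and 0.939 for AHP3). AHP4 had 0.487 to 0.60 CPM with ABA and 0 to 0.0213 CPM with mock in J1721, where the mock libraries held 0 or 1 read, so its fitted change is not given. Once mock library 1 of each line was left out, 2 rose and none fell in C24, and 2 rose and 1 fell in the average response.

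Type-A response regulators, early targets and dampers of cytokinin signalling, moved in both directions. Of 10, 1 rose and 5 fell in the average response, beside 27.6% of all genes each way. By line 1 rose and 1 fell in J0571, 1 rose and 3 fell in J1721, 1 rose and 4 fell in Q0990, and 2 rose and 1 fell in C24. Without mock library 1 of each line, 6 fell in the average response, 2 fell in J0571, 5 fell in J1721 and in Q0990, and 1 rose in C24. ARR16 rose by 2.18, ARR7 fell by 1.54 and ARR15 by 0.92 in the average.

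Median average log2 changes of the remaining lists, beside -0.01 for all genes, were -0.08 for the SAC51 family, 0.00 for MP and the HD-ZIP III factors and 0.03 for polyamine synthesis. They were -0.13 for DOF factors and targets, -0.42 for cytokinin synthesis and receptors, 0.01 for phosphotransfer proteins and -0.21 for type-A response regulators.

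**Figure D5:**
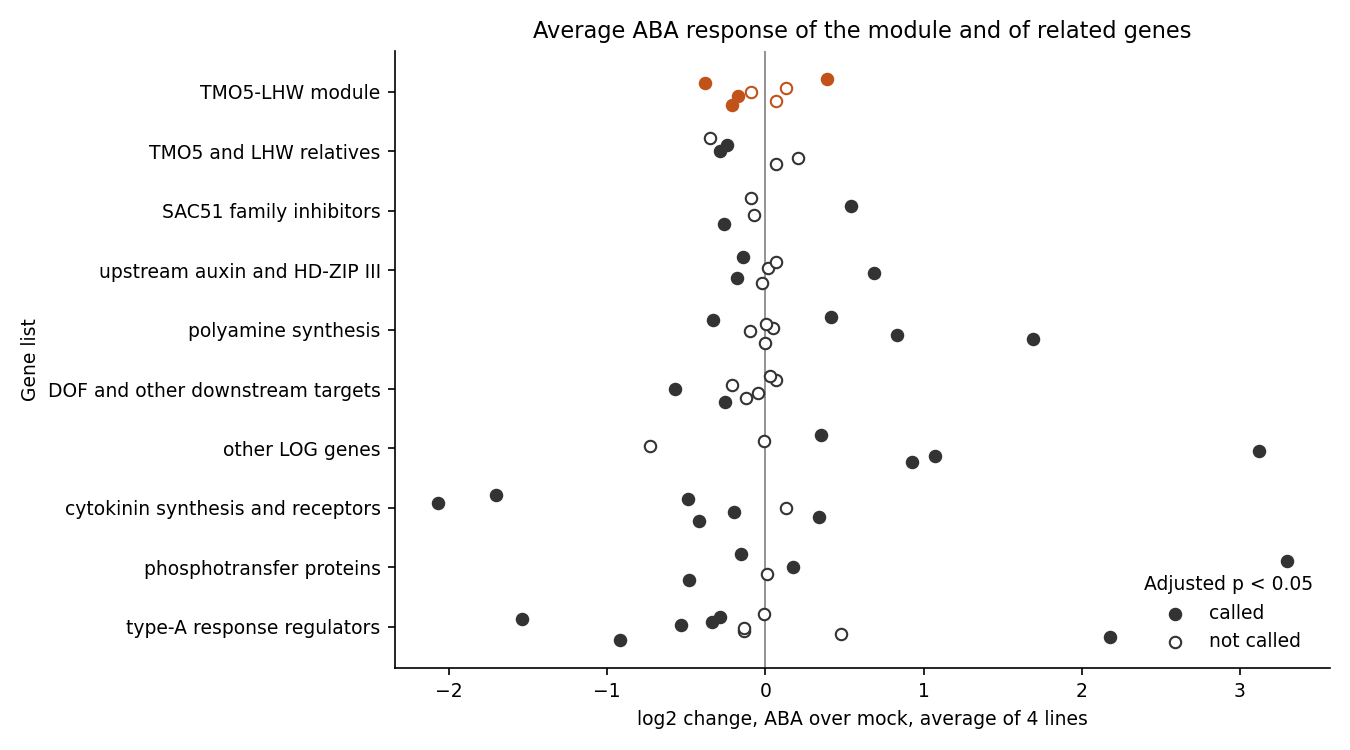
Log2 change with ABA over mock, averaged over the 4 lines, for each gene of the module (orange) and of 9 related lists (black). Filled points have an adjusted p under 0.05. Module members lie between -0.38 and 0.39, while LOG5 at 3.12 and IPT3 at -2.07 mark the wide spread of the cytokinin lists.

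The genes most like each member over the 24 libraries were found by Pearson's r of log2 CPM among 17429 genes. The libraries share the treatment, so these are descriptions. TMO5 was closest to PGSIP1, PPa4 and IRX15 (r = 0.94 for each). LHW was closest to AT1G79710 (0.93), GUN5 (0.93) and DCL4 (0.92), T5L1 to AT5G43520 (0.89), and ACL5 to AT5G18310 (0.89) and FBH4 (0.88). After group means were removed, r was 0.46, 0.45 and 0.42 for the genes closest to TMO5. It was 0.87, 0.88 and 0.81 for those of LHW, 0.63 for that of T5L1, and 0.86 and 0.81 for those of ACL5. For LOG3, LOG4 and AHP6 no r over all libraries exceeded 0.77. After group means were removed, r reached 0.82 for LOG3 with HCS2. It reached 0.73 for LOG4 with GG1 and 0.78 for AHP6 with AT4G08780. Between TMO5 and T5L1 r was -0.74 over all libraries and -0.06 after group means were removed.

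Letters known from ABA and auxin response elements were looked for on both strands in the 300 bases before each gene's annotated start (RefSeq, TAIR10.1). ACGTG, the core of ABA response elements, was found for ACL5, LOG3 and LOG4, that is 3 of 7 members, and in 25.6% of 27443 promoters. CACGTG, which holds ACGTG on both strands, was found for LOG4 and in 7.1% of promoters. TGTCTC, the auxin response element, was found for no member and in 13.0% of promoters. The windows are printed to show where these letters stand, in capitals, each on the minus strand: chr5:6591594-6591653 for ACL5, chr2:15627033-15627092 for LOG3 and chr3:19815730-19815789 for LOG4.
ACL5: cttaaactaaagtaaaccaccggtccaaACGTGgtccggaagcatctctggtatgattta
LOG3: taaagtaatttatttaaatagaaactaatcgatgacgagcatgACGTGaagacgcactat
LOG4: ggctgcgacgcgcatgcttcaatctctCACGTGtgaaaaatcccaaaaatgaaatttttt
TMO5, the member that rose, held none of these letters in its window, and neither did T5L1, LHW or AHP6.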

How the data were processed

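RNA was purified on plant columns and made into libraries with NEBNext Ultra reagents, sequenced from both ends at 150 bases, per the labels' protocols. The deposited table gives raw read counts for each gene in 24 libraries. HISAT2 and HTSeq are named in the submitters' processing notes. The sources used here give no versions, build, annotation or strand setting.

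Library sizes were scaled by TMM, and edgeR 4.0.16 (limma 3.58.1, R 4.3.3) fitted 8 group means by quasi-likelihood after its filter on low counts. Benjamini-Hochberg adjustment ran over 21315 genes in each comparison, with calls at an adjusted p under 0.05. The steps were tested on simulated data. Replicates differed beyond counting noise (chi-square per degree of freedom 6.79 to 34.8), so each library counted once. CPM values use scaled library sizes. DESeq2 1.42.0, other scalings, filters, blocks and left-out libraries were alternatives.

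The members and lists were chosen with earlier results of these data known. All 7 members are named, and of each related list at most the 3 genes with the largest change among those called in the average response. SAC51, SPDS2, TMO6, BGLU44, IPT1 and AHK3 were named in addition after their values had been seen. Names, exon lengths and sequences come from RefSeq (TAIR10.1), to which 32548 features matched. Loci whose list symbol RefSeq does not give keep their locus name, and the symbols of LHL1 and LHL3 were corrected to RefSeq after the counts had been seen, with membership unchanged.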

Additional observations from a re-analysis of the deposited data

How the results depend on the processing

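Of 1897 member values under an alternative, none that was called changed sign, 25 lost and 7 gained their call, and 109 that were called in neither fit changed sign. Alternatives were other scalings, DESeq2, other filters, a fit of the compared groups alone, replicate blocks, each library left out, and mock library 1 of every line left out. The number of members called in J0571 was 4 with upper-quartile scaling, against 2. For the ABA level of J1721 against C24 it was 0, against 1, with upper-quartile scaling, with no filter, with 1 CPM in 3 libraries as filter, with the compared groups alone, with the replicate number as a block, and without mock library 1 of every line. Causes were not tested.

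With 1 library left out, members called ranged over 1 to 3 in J0571, 0 to 2 in J1721, 2 to 3 in Q0990 and 3 to 4 in C24, stayed at 4 in the average, and were 0 for the ABA level of J1721 against C24. Replicate numbers paired samples weakly if at all (correlations of deviations -0.069 to 0.097 over 12 pairs, 7 of 12 best with their own number). The block over numbers changed no other member call. Blocks within lines gave 68 genes with differing responses among lines, against 117, and 11 for J1721 against C24, against 36.

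Counts of all genes also moved. With upper-quartile scaling, calls split 2600 higher and 2808 lower in J0571 (3065 and 2104 with TMM), 2752 and 4037 in J1721 (3377 and 2712), 2881 and 4649 in Q0990 (3631 and 3020), 3281 and 4875 in C24 (3969 and 3283) and 4624 and 8304 in the average (5879 and 5893). DESeq2 gave 278 genes for differences among lines, and 194, 67 and 2 for J0571, J1721 and Q0990 against C24, beside 117, 86, 36 and 0 with edgeR. For mock levels it gave 280, 47 and 17, beside 101, 9 and 10, and for the ABA level of Q0990 27, beside 16. Without mock library 1 of every line these were 55 among lines, 57 and 10 for J0571 and J1721 against C24, and 22 and 5 for their mock levels. The groups alone gave 15 for J1721 against C24 and 39 for the mock level of J0571, and no filter gave 1 for Q0990 against C24. With 1 library left out, genes called ranged over 65 to 126 among lines, 57 to 90, 8 to 34 and 0 to 1 for J0571, J1721 and Q0990 against C24, 26 to 77, 5 to 9 and 6 to 17 for their mock levels, and, for ABA levels, 471 to 749 for J0571, beside 840, and 177 (without C24 ABA library 2) to 276 for J1721, beside 276. List counts without mock library 1 were added after the data had been seen. LOG3, LOG4 and AHP6, with 53 to 183 counts, limit what could be detected.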
